A study of Mus musculus and Homo sapiens with 43 samples.

Results

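The HoxD cluster is a row of 9 Hox genes on mouse chromosome 2 (Hoxd1, Hoxd3, Hoxd4, Hoxd8, Hoxd9, Hoxd10, Hoxd11, Hoxd12 and Hoxd13), with the homeobox gene Evx2 beside Hoxd13. These 10 genes were taken by name, by a rule that uses no values, from 35245 genes in a first table of transcript levels and 32231 in a second. Hox genes encode homeodomain transcription factors that give cells their position along the body axis, and their order in the cluster follows the order in which they are switched on in the embryo, from Hoxd1 towards Hoxd13. Retinoic acid, a vitamin A derivative, switches on the genes of the Hoxd1 side in neural tissue, while the genes of the Hoxd13 side act in the trunk end, the genitals and the limbs. In embryonic stem cells (ESC) the whole row is kept silent by the Polycomb repressive complexes PRC1 and PRC2.

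The RNA-seq part of the study used the mouse ESC line E14 and CRISPR/Cas9 lines made from it that lack Pcgf2 (Pcgf2 KO; a Ring-finger partner in PRC1), Phc1 (Phc1 KO; a PRC1 subunit with a SAM domain, through which such subunits join into chains) or the SAM domain of Phc1 (Phc1-SAM KO). ESC were grown with LIF, 1 µM PD0325901 and 3 µM CHIR99021, an inhibitor pair ("2i") that holds cells in a naive state. Embryoid bodies (EB) grew without these agents for 3 or 8 days, and neural progenitor cells (NPC) were differentiated without them and with 5 µM retinoic acid from day 4 to day 8. WT and Pcgf2 KO were sequenced at all 4 stages (first table), and Phc1 KO and Phc1-SAM KO as ESC and NPC (second table), with 2 libraries in each of 12 groups, 24 in all. The labels do not say whether the 2 libraries of a group come from separate cultures or clones, so p-values measure the spread between these libraries only.

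Levels are TPM, each gene's share of a library's transcripts corrected for transcript length, which keep no read counts, so the depth behind each value is unknown. Across genes, replicate libraries had Pearson's r of 0.993 to 0.995 (first table) and 0.992 to 0.995 (second table). The edited genes gave no check of the labels at the RNA level: Pcgf2 stood at 180 and 284 TPM in Pcgf2 KO ESC against 155 and 149 TPM in WT, and Phc1 at 150.2 and 151.5 TPM in Phc1 KO ESC against 266 and 247 TPM in Phc1-SAM KO ESC, with 109 and 106 TPM against 103 and 111 TPM in NPC. The Y-linked gene Eif2s3y set the WT EB day 8 libraries apart, with 50.4 and 64.7 TPM, from all other WT libraries, which had 0.422 to 2.78 TPM. Pcgf2 KO libraries had 45.7 to 76.1 TPM of Eif2s3y at every stage, and the Phc1 lines 2.04 to 36.6 TPM. The part of this difference between lines in the results was not tested. Stage labels were checked on marker lists. The summed level of 12 naive pluripotency genes was 2150 to 2220 TPM in WT ESC and 39.3 to 44.2 TPM in WT NPC. That of 14 neural progenitor genes was 258 to 259 TPM in WT ESC and 626 to 828 TPM in WT NPC. In knock-out NPC the naive genes still summed to 1064 to 1179 TPM in Pcgf2 KO, 1023 to 1026 TPM in Phc1 KO and 794 to 800 TPM in Phc1-SAM KO.

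In the RefSeq annotation of build GRCm38.p6 the 9 Hoxd genes lie on the plus strand, from Hoxd13 (chr2:74668225-74671603) to Hoxd1 (chr2:74762980-74765142), whose start lies 94.8 kb from that of Hoxd13. Evx2 lies on the minus strand beyond Hoxd13 (chr2:74652989-74661520). The Hoxd3 start used here lies 43.8 kb from that of Hoxd13, and the Hoxd4 start 53.8 kb. The Hoxd3 promoter read here is thus on the Hoxd8 side of Hoxd4, out of the gene order used. The annotated span of Hoxd4 lies wholly inside that of Hoxd3 on the same strand (7183 bases), and those of Hoxd10 and Hoxd11 overlap by 2744 bases. How reads from shared sequence were divided is not given in the sources used here, so the split of signal within each of these pairs is uncertain. Promoters were found for all 10 genes (11 promoters, since Hoxd11 has a pair). They held a median of 20 CpG dinucleotides in 300 bases, against 7 over 32851 mouse promoters. CpG-dense DNA is the kind of sequence on which mammalian Polycomb complexes typically gather. The promoters ranged from 4 CpG, at Hoxd4 and at the upstream Hoxd11 promoter, to 37 at Hoxd13. Hoxd8 held 6 and the other Hoxd11 promoter 25.

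Shown are the promoters of the genes on which the results below turn: Hoxd3 and Hoxd4, the most abundant members in WT NPC, and Hoxd9 and Hoxd13, 2 of the members with the largest rises in Pcgf2 KO ESC. Each runs 5′ to 3′ from 250 bases before to 50 bases after the annotated start (RefSeq, GRCm38.p6), with CpG dinucleotides in capitals.
Hoxd3 promoter, chr2:74711743-74712042, plus strand: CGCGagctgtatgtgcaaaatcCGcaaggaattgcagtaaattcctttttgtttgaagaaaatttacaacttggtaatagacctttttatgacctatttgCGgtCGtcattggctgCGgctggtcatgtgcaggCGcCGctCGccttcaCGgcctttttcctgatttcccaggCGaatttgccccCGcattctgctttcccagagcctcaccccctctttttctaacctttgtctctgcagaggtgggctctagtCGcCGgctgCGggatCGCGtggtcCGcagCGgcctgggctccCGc
Hoxd4 promoter, chr2:74721728-74722027, plus strand: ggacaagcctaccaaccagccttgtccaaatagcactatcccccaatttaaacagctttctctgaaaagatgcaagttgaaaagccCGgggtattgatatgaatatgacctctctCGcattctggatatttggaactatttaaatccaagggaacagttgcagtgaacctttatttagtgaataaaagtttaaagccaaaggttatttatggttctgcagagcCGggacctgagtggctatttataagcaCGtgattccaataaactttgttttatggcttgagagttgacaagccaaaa
Hoxd9 promoter, chr2:74697513-74697812, plus strand: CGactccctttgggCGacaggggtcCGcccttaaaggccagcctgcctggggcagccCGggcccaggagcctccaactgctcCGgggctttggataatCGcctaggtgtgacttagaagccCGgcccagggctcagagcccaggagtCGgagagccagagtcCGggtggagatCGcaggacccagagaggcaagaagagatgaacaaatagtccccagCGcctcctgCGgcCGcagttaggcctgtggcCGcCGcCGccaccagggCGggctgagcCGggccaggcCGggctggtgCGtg
Hoxd13 promoter, chr2:74667975-74668274, plus strand: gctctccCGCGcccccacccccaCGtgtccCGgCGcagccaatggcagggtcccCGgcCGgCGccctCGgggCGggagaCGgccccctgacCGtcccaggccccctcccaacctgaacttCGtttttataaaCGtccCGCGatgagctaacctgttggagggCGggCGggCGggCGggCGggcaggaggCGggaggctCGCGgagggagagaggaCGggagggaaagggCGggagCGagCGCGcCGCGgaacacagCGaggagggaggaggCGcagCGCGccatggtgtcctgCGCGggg
The capitals are dense in the Hoxd13 sequence and sparse in that of Hoxd4. The sequence AGGTCA, the core element bound by retinoic acid receptors, was searched on both strands and found in 4 of the 11 member promoters (Hoxd3, Hoxd4, Hoxd8 and Hoxd10), against 16.3% of all promoters. Its direct repeats with 5 bases (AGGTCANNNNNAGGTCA) or 2 bases (AGGTCANNAGGTCA) between were in none of the 11, and in 3 of 32851 promoters each. The TATAAA box was in the promoters of Hoxd4, Hoxd13 and Evx2, against 13.6% of all promoters, and overlapped AGGTCA in none of the members. CCAAT was in 7 of 11, against 37.4%. Such matches describe letters in these windows only.

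In WT cells the cluster was near silent in ESC and EB day 3, was switched on along nearly its whole length by EB day 8, and in NPC was read mainly from Hoxd3 and Hoxd4. Summed over the 10 genes, WT ESC had 1.69 and 1.57 TPM, EB day 3 had 1.70 and 1.23 TPM, EB day 8 had 39.2 and 39.2 TPM, and NPC had 146 and 212 TPM. Tests used limma on log2(TPM + 1), which understates the change of low genes, over genes that reached 1 TPM in 2 or more libraries. Benjamini-Hochberg adjustment ran over all 17938 genes tested in the first table (15775 in the second), and a gene was called at an adjusted p under 0.05. Of the 10 members 8 passed the level filter. Hoxd12 and Evx2 did not and are described by their levels. In bulk RNA, fewer cells that use a gene and less RNA per cell cannot be told apart.

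**Figure D1:**
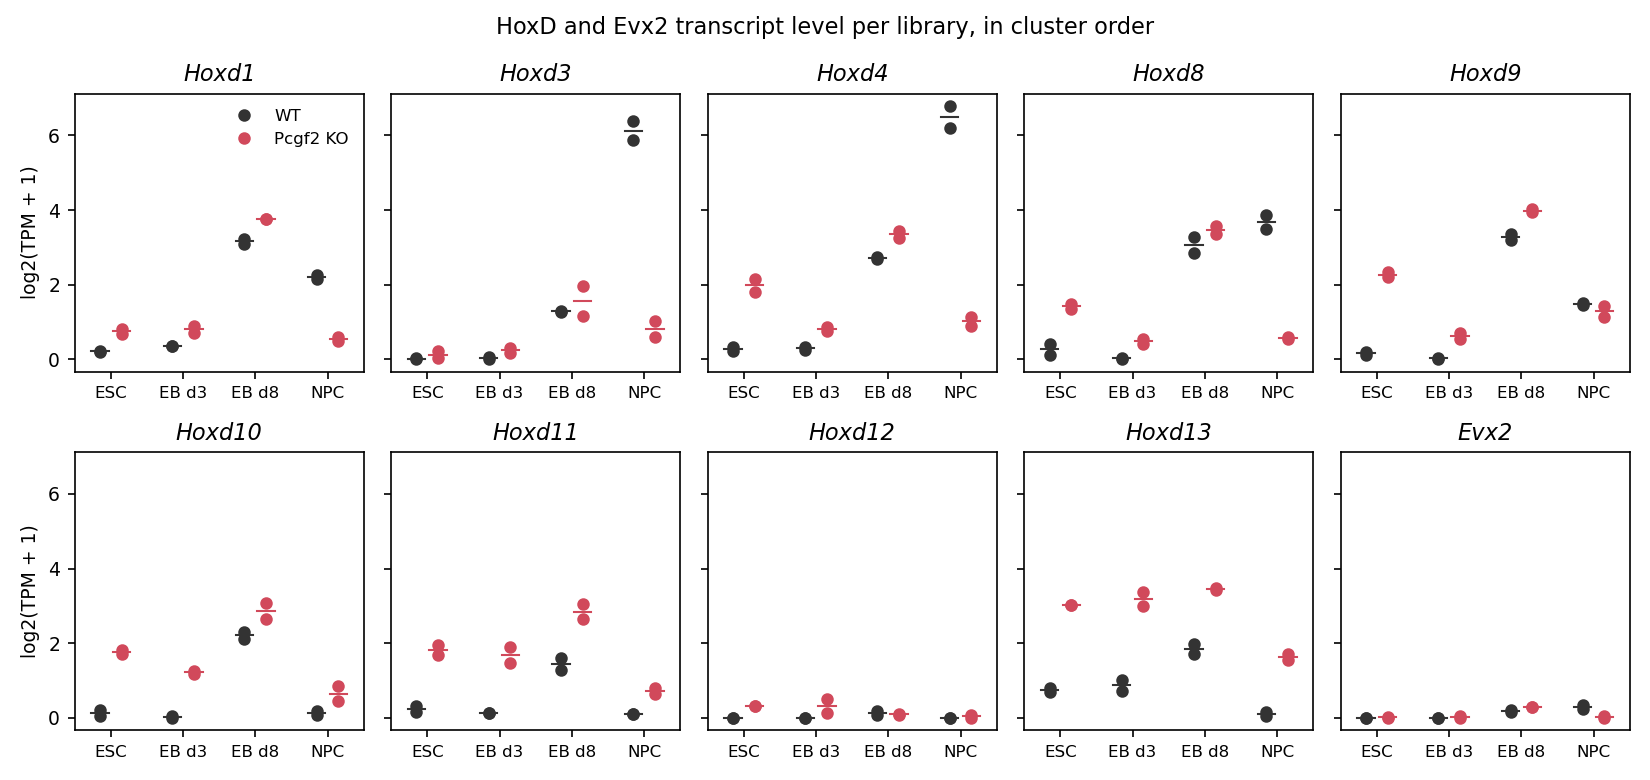
Level of each member as log2(TPM + 1) per library in WT and Pcgf2 KO at the 4 stages. Points are libraries (2 per group) and short lines their means. Hoxd3 and Hoxd4 reach 57.9 to 110 TPM in WT NPC against 0.518 to 1.20 TPM in Pcgf2 KO NPC, while Hoxd10, Hoxd11 and Hoxd13 are lowest in WT NPC or WT EB day 3.

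From ESC to EB day 3 in WT none of the 8 tested members passed the test with limma, and none had an unadjusted p under 0.05, while 55.8% of all tested genes changed. With a pseudocount of 0.1 in place of 1, 2 members passed. From EB day 3 to EB day 8 all 8 rose, where 33.6% of all genes rose. Hoxd9, which with its neighbours patterns the lumbar spinal cord and the hindlimb, went from 0.0257 and 0 TPM to 8.17 and 9.30 TPM (log2 fold change 3.26, SE 0.13, adjusted p = 1.7e-09). Hoxd8 went from 0.0205 and 0 TPM to 8.63 and 6.16 TPM (3.04, SE 0.17, adjusted p = 4.3e-08). Hoxd1, which in mice shapes pain-sensing neurons, went from 0.268 and 0.264 TPM to 8.40 and 7.46 TPM (2.82, SE 0.12, adjusted p = 3.1e-09). Every EB day 8 library lay above both EB day 3 libraries for these 3 genes. The share of all genes separated in this way is not given here. The rise was smaller for Hoxd13, the gene whose changes cause fused and extra digits in people, which went from 1.03 and 0.628 TPM to 2.25 and 2.94 TPM (0.98, SE 0.16, adjusted p = 0.00025). The WT EB day 8 libraries are those set apart by Eif2s3y. Their summed level of 12 limb and lateral mesoderm genes was 1001 to 1024 TPM, against 16.5 to 18.8 TPM at EB day 3, with 10 of 12 up. Endoderm genes went from 31.2 to 34.4 TPM to 1305 to 1323 TPM (12 of 12 up), blood and endothelium genes from 8.83 to 10.5 TPM to 4920 to 5570 TPM (12 of 12 up), and fibroblast genes from 112 to 120.3 TPM to 2663 to 2782 TPM (8 of 10 up, 1 down). The part of these cell types in the Hoxd rise was not tested.

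WT NPC and WT EB day 8, the latter set apart by Eif2s3y, differed in both directions along the cluster. The part of that difference between the libraries in these values was not tested. NPC against EB day 8 gave 3 members up and 5 down, where 38.1% of all tested genes rose and 20.1% fell. The count up is near that background. Hoxd3, needed for the first neck vertebrae, stood at 57.9 and 82.6 TPM in NPC against 1.40 and 1.46 TPM in EB day 8 (log2 fold change 4.85, SE 0.24, adjusted p = 2.3e-08). Hoxd4, a gene of the hindbrain and neck with a known retinoic acid response, stood at 72.0 and 110 TPM in NPC against 5.45 and 5.67 TPM (3.78, SE 0.19, adjusted p = 2.0e-08). Both were far above every other group of the study. Hoxd8 differed less, with 10.3 and 13.4 TPM in NPC against 8.63 and 6.16 TPM (0.62, SE 0.17, adjusted p = 0.0092). That call was lost under both other scalings, median-of-ratios (adjusted p = 0.086) and quantile normalization (0.093), with a pseudocount of 0.1 (0.13), without the second NPC library (0.090) and without the second EB day 8 library (0.097). Hoxd1 and the genes from Hoxd9 to Hoxd13 were lower in NPC. Hoxd9 stood at 1.82 and 1.72 TPM against 8.17 and 9.30 TPM, a log2 fold change of -1.81 (SE 0.13, adjusted p = 2.8e-07). Hoxd10 stood at 0.0389 and 0.119 TPM against 3.31 and 3.93 TPM, a log2 fold change of -2.10 (SE 0.17, adjusted p = 8.8e-07). Hoxd13 stood at 0.111 and 0.0283 TPM against 2.25 and 2.94 TPM, a log2 fold change of -1.74 (SE 0.16, adjusted p = 2.9e-06). For each of these 3 genes both NPC libraries were below both EB day 8 libraries, but the share of all genes so separated is not given here.

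Against their own ESC, WT NPC had 5 members up and 1 down, near the background of 53.4% up and 21.6% down. Those up were Hoxd1, Hoxd3, Hoxd4, Hoxd8 and Hoxd9, and the one down was Hoxd13, at 0.611 and 0.744 TPM in ESC (log2 fold change -0.65, SE 0.16, adjusted p = 0.0030). The summed level of 18 retinoic acid response genes was 2662 to 2842 TPM in WT NPC and 282 to 289 TPM in WT EB day 8. Of the other lists in NPC against EB day 8, 11 of 12 endoderm, 8 of 10 fibroblast and 8 of 12 blood and endothelium genes were lower, and their part in the Hoxd values was not tested. Over all tested genes the median log2 difference of NPC against ESC in WT was 0.46, and that of NPC against EB day 8 was 0.16. Median-of-ratios scaling brings both to within 0.02 of 0, with medians of -0.0046 and -0.013.

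In Pcgf2 KO ESC, grown in the same naive medium as WT, most of the cluster was higher than in WT. Of the 8 tested members 7 rose and none fell, where 24.9% of all tested genes rose and 11% fell. The median log2 fold change was 1.60 over these 8 and 0.10 over all tested genes. Hoxd13 was the highest member in Pcgf2 KO ESC, at 7.07 and 7.18 TPM against 0.611 and 0.744 TPM in WT (log2 fold change 2.28, SE 0.16, adjusted p = 1.5e-06). Hoxd9 stood at 4.01 and 3.61 TPM against 0.0855 and 0.136 TPM (2.11, SE 0.13, adjusted p = 4.8e-07), and Hoxd4 at 2.51 and 3.46 TPM against 0.249 and 0.170 TPM (1.71, SE 0.19, adjusted p = 4.1e-05). In all 3 cases the lower knock-out library was over 5 times the higher WT library in level. That is a description of these 3 genes only, since the share of all genes so separated is not given here.

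Hoxd10 and Hoxd11, which act in the limb and the lower trunk, rose by a like amount. Hoxd10 stood at 2.24 and 2.51 TPM against 0.151 and 0.0268 TPM (log2 fold change 1.63, SE 0.17, adjusted p = 2.3e-05). Hoxd11 stood at 2.18 and 2.82 TPM against 0.104 and 0.248 TPM (1.57, SE 0.19, adjusted p = 7.7e-05). Hoxd8 had 1.56 and 1.79 TPM against 0.325 and 0.0833 TPM (1.16, SE 0.17, adjusted p = 0.00034), and Hoxd1 0.599 and 0.763 TPM against 0.147 and 0.156 TPM (0.54, SE 0.12, adjusted p = 0.0036). The exception was Hoxd3, with 0.0170 and 0.156 TPM against 0.0163 and 0 TPM (0.10, SE 0.24, adjusted p = 0.80), where the groups sat at the bottom of the scale. With no level limit the count was 8 of 10. When only the 4 ESC libraries entered the fit it was 6 of the 6 members tested. Those 6 passed the level filter through the knock-out libraries alone, so that count is no check of the calls.

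**Figure D2:**
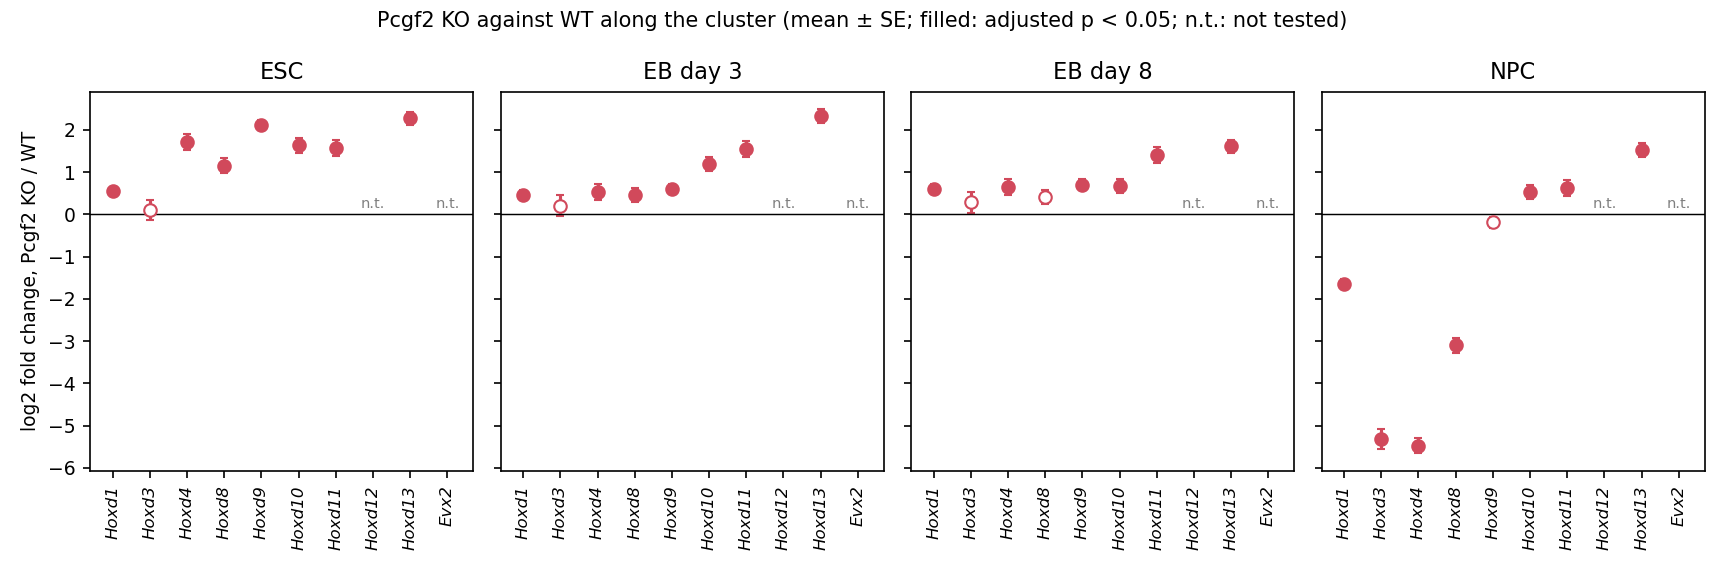
Log2 fold change of Pcgf2 KO against WT for each member in cluster order, at the 4 stages. Points are the fitted values with their SE, filled where the adjusted p is under 0.05; n.t. marks Hoxd12 and Evx2. The values run from 0.10 (Hoxd3) to 2.28 (Hoxd13) in ESC, and in NPC from -5.47 (Hoxd4) to 1.53 (Hoxd13).

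At EB day 3 the Pcgf2 KO cluster stayed on at its Hoxd13 side. Of the 8 tested members 7 were called up and none down, against 16.7% of all genes up and 31.9% down. The median log2 fold change was 0.56 over the 8 and -0.11 over all tested genes. Hoxd13 stood at 7.03 and 9.42 TPM against 1.03 and 0.628 TPM in WT (log2 fold change 2.33, SE 0.16, adjusted p = 7.3e-07), and Hoxd11 at 2.73 and 1.74 TPM against 0.0968 and 0.0941 TPM (1.55, SE 0.19, adjusted p = 4.9e-05). Hoxd10 stood at 1.38 and 1.25 TPM against 0.0306 and 0 TPM (1.19, SE 0.17, adjusted p = 0.00013). Hoxd9, Hoxd4, Hoxd8 and Hoxd1 were all under 1 TPM in both knock-out libraries, with log2 fold changes of 0.60, 0.53, 0.46 and 0.46.

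The calls of Hoxd4 (adjusted p = 0.037) and Hoxd8 (0.045) at EB day 3 did not hold without any one of the 4 libraries compared (0.084 to 0.14 and 0.087 to 0.18), and Hoxd1 was lost without the first knock-out library (0.068). With no level limit Hoxd4 and Hoxd8 had adjusted p = 0.068 and 0.082, under quantile normalization 0.079 and 0.088, and Hoxd4 had 0.057 without the EB day 8 libraries. With the replicate number as a block Hoxd8 had 0.057. Without single libraries 4 to 5 members were called, and 3 when only the 4 libraries compared entered the fit, where only those 3 members passed the level filter. Those 3 members passed it through the knock-out libraries, so that count is no check of the calls. Hoxd3, at 0.236 and 0.125 TPM against 0.0396 and 0 TPM, was not called. The naive genes, at 758 to 794 TPM in Pcgf2 KO EB day 3 against 289 to 293 TPM in WT, moved with the genotype. Of these 12 genes 11 rose, and their part in the Hoxd values was not tested.

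At EB day 8 the WT cluster was on, and the Pcgf2 KO cluster stood above it at most genes. The count was 6 of 8 up and none down, against 20.6% up and 17.1% down over all genes, with a median log2 fold change of 0.65 over the 8 and 0.04 over all tested genes. The largest differences were again at the Hoxd13 side. Hoxd13 had 10.2 and 9.68 TPM against 2.25 and 2.94 TPM (log2 fold change 1.61, SE 0.16, adjusted p = 1.7e-05), and Hoxd11 had 7.32 and 5.21 TPM against 1.43 and 2.01 TPM (1.41, SE 0.19, adjusted p = 0.00015). Hoxd9 had 14.5 and 15.2 TPM against 8.17 and 9.30 TPM (0.70, SE 0.13, adjusted p = 0.0010), the highest levels of this gene in the study. Hoxd1 had 12.4 and 12.6 TPM against 8.40 and 7.46 TPM (0.60, SE 0.12, adjusted p = 0.0019). For these 4 genes the groups did not overlap, which is a description only, since the share of all genes without overlap is not given here.

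The other EB day 8 calls were less stable. Hoxd4 (9.90 and 8.59 against 5.45 and 5.67 TPM; log2 fold change 0.64, adjusted p = 0.019) was lost without either WT library (adjusted p = 0.078 and 0.064), without the first knock-out library (0.11) and with a pseudocount of 0.1 (0.051). Hoxd10 (7.48 and 5.28 against 3.31 and 3.93 TPM; 0.66, adjusted p = 0.0086) was lost without the first WT library (0.061), without the first knock-out library (0.086) and with that pseudocount (0.16). Hoxd8 (10.9 and 9.32 against 8.63 and 6.16 TPM; 0.41, adjusted p = 0.083) passed only without the first WT library (0.029). Hoxd3 (2.89 and 1.24 against 1.40 and 1.46 TPM; 0.28, adjusted p = 0.41) passed without the second knock-out library (0.046) and turned to -0.11 without the first. Over the 4 omissions 4 to 7 members were called. The limb and lateral mesoderm genes summed to 597 to 621 TPM in Pcgf2 KO EB day 8 against 1001 to 1024 TPM in WT, with 3 of 12 up and 5 down, and 12 endoderm genes to 323 to 344 TPM against 1305 to 1323 TPM, with all 12 down. Of 12 blood and endothelium genes 8 were down and 1 up (378 to 391 TPM against 4920 to 5570 TPM), and of 10 fibroblast genes 9 were down and 1 up (705 to 779 TPM against 2663 to 2782 TPM). Of the 12 naive genes 9 were up and none down (426 to 460 TPM against 146 to 151 TPM). The part of these cell types in the Hoxd values was not tested.

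In NPC the fitted effect of the knock-out changed sign beyond Hoxd9. Of the 8 tested members 4 fell (Hoxd1, Hoxd3, Hoxd4 and Hoxd8) and 3 rose (Hoxd10, Hoxd11 and Hoxd13). Of all genes 34.7% fell and 31.5% rose, so these counts are near the background, and what follows describes single genes. Hoxd4 stood at 72.0 and 110 TPM in WT and at 1.20 and 0.856 TPM in Pcgf2 KO, an 88.2-fold difference of the mean TPM (log2 fold change -5.47, SE 0.19, adjusted p = 4.5e-10). Hoxd3 stood at 57.9 and 82.6 TPM against 0.518 and 1.04 TPM, a 90.1-fold difference of the mean TPM (-5.32, SE 0.24, adjusted p = 4.6e-09). No Pcgf2 KO NPC library exceeded 1.20 TPM of either gene.

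Hoxd8 stood at 10.3 and 13.4 TPM in WT NPC against 0.515 and 0.460 TPM in Pcgf2 KO NPC (log2 fold change -3.10, SE 0.17, adjusted p = 2.2e-08). Hoxd1 stood at 3.41 and 3.79 TPM against 0.520 and 0.397 TPM (-1.66, SE 0.12, adjusted p = 1.6e-07). Hoxd9 lay at the turning point, with 1.82 and 1.72 TPM in WT and 1.69 and 1.20 TPM in the knock-out (-0.19, SE 0.13, adjusted p = 0.21). Beyond it the sign changed. Hoxd13 had 2.26 and 1.90 TPM in Pcgf2 KO against 0.111 and 0.0283 TPM in WT, a 29.9-fold difference of the mean TPM (1.53, SE 0.16, adjusted p = 5.0e-06). Hoxd11 had 0.744 and 0.537 TPM against 0.0662 and 0.0631 TPM (0.62, SE 0.19, adjusted p = 0.013), and Hoxd10 had 0.782 and 0.371 TPM against 0.0389 and 0.119 TPM (0.54, SE 0.17, adjusted p = 0.014). These last 2 rises were below 1 TPM in level. Both were lost without the first knock-out library (adjusted p = 0.079 for Hoxd11 and 0.14 for Hoxd10) and under quantile normalization (0.16 and 0.18), and that of Hoxd10 also without the first WT library (0.073).

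Marker lists moved with the genotype in the NPC. The naive genes all rose in Pcgf2 KO NPC (12 of 12; 1064 to 1179 TPM against 39.3 to 44.2 TPM). Of 13 neural progenitor genes tested 12 fell and 1 rose (144 to 173 TPM against 626 to 828 TPM for the list of 14, with Dbx1 at 0 in both knock-out libraries). Of 12 neuron genes 11 fell (63.5 to 69.4 TPM against 408 to 528 TPM). Of 18 retinoic acid response genes 14 fell and 4 rose, with sums of 1235 to 1273 TPM against 2662 to 2842 TPM. Of 9 trophectoderm genes tested all 9 rose (2658 to 3147 TPM against 303 to 306 TPM for the list of 10). Of 12 limb and lateral mesoderm genes 10 fell and 1 rose (67.2 to 67.3 TPM against 353 to 474 TPM), of 12 blood and endothelium genes 10 fell and 2 rose (67.1 to 71.9 TPM against 645 to 693 TPM), and of 10 fibroblast genes 8 fell (160.1 to 211 TPM against 416 to 494 TPM). The part of these marker changes in the Hoxd values was not tested.

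The change of the knock-out effect between stages was tested directly, as the difference of the log2 fold changes. Between NPC and ESC the effect was lower in NPC for all 8 tested members, against 34.2% of all genes. The difference was -7.18 for Hoxd4 (SE 0.27), -5.42 for Hoxd3, -4.26 for Hoxd8, -2.30 for Hoxd9 and -2.20 for Hoxd1. From Hoxd10 to Hoxd13 it was smaller, at -1.10, -0.95 and -0.75. For Hoxd13 the sign depended on the pseudocount, with 0.50 at a pseudocount of 0.1 (where Hoxd11 had adjusted p = 0.072), and the call was lost without the second Pcgf2 KO NPC library (adjusted p = 0.051). Between NPC and EB day 8 it was lower for 6 members, against 30.6% of all genes, with -6.11 for Hoxd4 and -5.60 for Hoxd3. The smallest of the 6, Hoxd11 at -0.79, turned to 0.35 at a pseudocount of 0.1 and was lost without either WT NPC library (0.059 and 0.058), the second Pcgf2 KO NPC library (0.084), the first WT EB day 8 library (0.094) or the first Pcgf2 KO EB day 8 library (0.11). Hoxd10 and Hoxd13 were not called there.

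Between EB day 3 and ESC the effect was lower for Hoxd4, Hoxd8 and Hoxd9 (3 of 8, against 31.1% of all genes), by -1.18, -0.69 and -1.51. That share is near the background, and the call of Hoxd8 was lost without 7 of the 8 libraries in turn, the exception being the first WT ESC library (adjusted p = 0.055 to 0.15). It was also lost with a pseudocount of 0.1 (-0.51, adjusted p = 0.47), with no level limit (0.078) and under median-of-ratios scaling (0.056). Under quantile normalization (0.075) and with the replicate number as a block (0.054) it was lost as well. As a ratio of mean TPM, without a test, Pcgf2 KO over WT was 8.20 in ESC and 38.4 at EB day 3 for Hoxd8, and 34.4 and 42.0 for Hoxd9, the opposite order to the log2(TPM + 1) differences. Both genes had 1 of the 2 WT EB day 3 libraries at 0, so those ratios rest on 1 library. For Hoxd4 the ratios were 14.2 and 3.47. Between EB day 8 and ESC it was lower for 5 members (Hoxd4, Hoxd8, Hoxd9, Hoxd10 and Hoxd13), against 22% of all genes, and without single libraries for 3 to 4. Hoxd9 had the largest of these differences, -1.41, and Hoxd13 the smallest, -0.67. The Hoxd13 call was lost without 7 of the 8 libraries, all but the first WT EB day 8 library (adjusted p = 0.062 to 0.14). The Hoxd8 call was lost without the second WT ESC, the second Pcgf2 KO ESC, the first WT EB day 8 or the second Pcgf2 KO EB day 8 library (0.094 to 0.13). Both calls were also lost with no level limit (0.063 for Hoxd8 and 0.070 for Hoxd13) and under quantile normalization (0.065 and 0.094). The 2 comparisons share their ESC libraries, so these sets of values are not independent. In each stage difference that involves EB day 8, the WT libraries of that stage are those set apart by Eif2s3y. The part of that in these values was not tested.

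**Figure D3:**
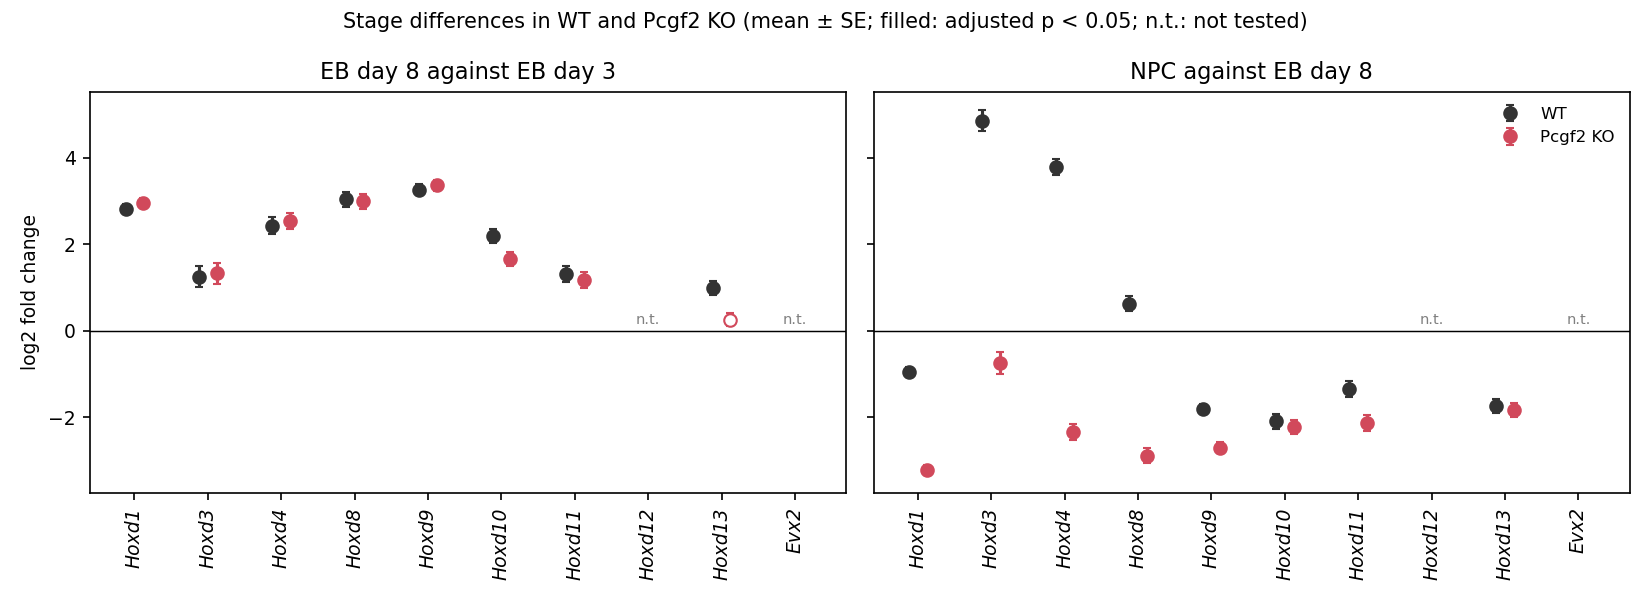
Log2 fold change between stages for each member, in WT and in Pcgf2 KO, for EB day 8 against EB day 3 (left) and NPC against EB day 8 (right). Points are fitted values with SE, filled where the adjusted p is under 0.05; n.t. marks Hoxd12 and Evx2. On the left both genotypes lie above 0; on the right Hoxd3 is at 4.85 in WT and -0.75 in Pcgf2 KO, and Hoxd4 at 3.78 and -2.34.

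Followed through its own stages, the Pcgf2 KO cluster lost part of its Hoxd4 to Hoxd10 output by EB day 3, rose at EB day 8 and was low in NPC. From ESC to EB day 3, 4 of 8 members fell and none rose, against 19.2% of all genes up and 27% down. They were Hoxd9 (log2 fold change -1.64, SE 0.13, adjusted p = 1.1e-06), Hoxd4 (-1.17, adjusted p = 0.00036), Hoxd8 (-0.94, adjusted p = 0.00095) and Hoxd10 (-0.54, adjusted p = 0.019). Hoxd10 was lost with a pseudocount of 0.1 (adjusted p = 0.13), without the second ESC library (0.094) and without either EB day 3 library (0.056 and 0.092). Hoxd13 was not called, with 7.07 and 7.18 TPM in ESC and 7.03 and 9.42 TPM in EB day 3.

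From EB day 3 to EB day 8, 7 of 8 rose in the knock-out, against 43% of all genes. They ranged from a log2 fold change of 1.17 for Hoxd11 to 3.36 for Hoxd9, with Hoxd1 at 2.96 and Hoxd8 at 2.99. Hoxd13 was again not called (10.2 and 9.68 TPM at EB day 8). The median of all tested genes shifted by 0.25 in that comparison. From EB day 8 to NPC all 8 members fell in the knock-out, against 26.6% of all genes. The range was from -0.75 for Hoxd3 to -3.21 for Hoxd1. The Hoxd3 call was lost without the first knock-out library of either stage (adjusted p = 0.15 without that of NPC and 0.22 without that of EB day 8) and in a fit of only the groups compared (0.067). In WT, Hoxd3, Hoxd4 and Hoxd8 had risen in that comparison.

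Against its own ESC, the Pcgf2 KO NPC cluster had 6 of 8 members down and 1 up, where 19.3% of all genes fell and 47.5% rose. Hoxd13 fell from 7.07 and 7.18 TPM to 2.26 and 1.90 TPM (log2 fold change -1.40, SE 0.16, adjusted p = 1.2e-05) and Hoxd9 from 4.01 and 3.61 TPM to 1.69 and 1.20 TPM (-0.98, SE 0.13, adjusted p = 2.9e-05). Hoxd4 fell from 2.51 and 3.46 TPM to 1.20 and 0.856 TPM (-0.97, SE 0.19, adjusted p = 0.00073). The member called up was Hoxd3 (0.70, SE 0.24, adjusted p = 0.025), which was lost without the first ESC library (0.12), without the second NPC library (0.17) and under quantile normalization (0.20). The median over all tested genes was 0.32 in this comparison, so the members fell against a background that shifted up.

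The Phc1 lines also carried Hoxd transcripts as ESC, and their NPC held transcripts from both sides of the cluster. Their values come from the second table, which was normalized separately, so levels are set beside those of WT and Pcgf2 KO without a test. In Phc1 KO ESC, Hoxd13 had 4.52 and 4.67 TPM and Hoxd9 had 2.56 and 1.96 TPM, and in Phc1-SAM KO ESC they had 9.16 and 8.13 TPM and 3.53 and 3.97 TPM. Hoxd4 was alike in level in all 3 knock-out ESC lines, at 3.46 and 2.49 TPM in Phc1 KO, 2.50 and 3.28 TPM in Phc1-SAM KO and 2.51 and 3.46 TPM in Pcgf2 KO. Hoxd3 was at or under 0.496 TPM in all of them.

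**Figure D4:**
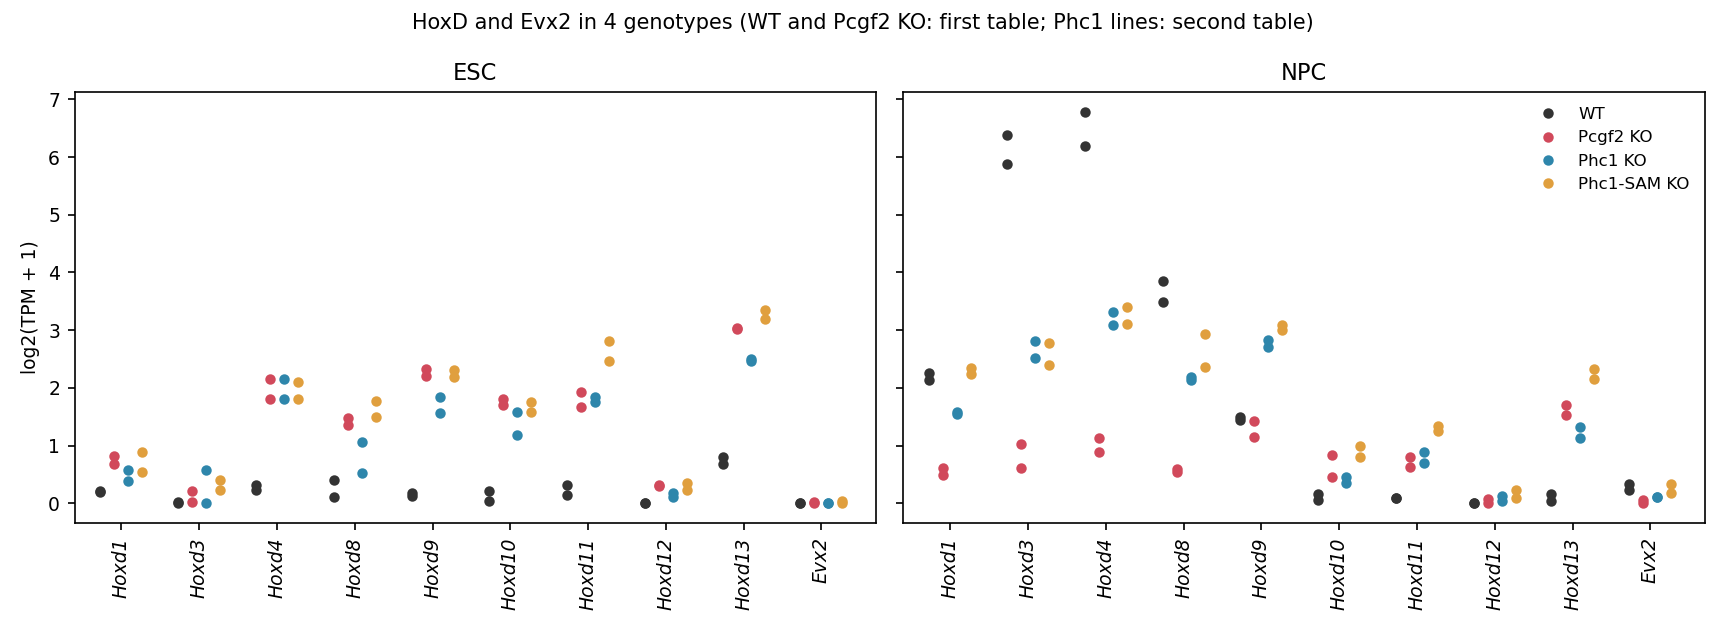
Level of each member as log2(TPM + 1) in ESC (left) and NPC (right) of the 4 genotypes. Points are libraries (2 per group); WT and Pcgf2 KO come from the first table and the Phc1 lines from the second, normalized separately. In NPC, Hoxd4 is at 72.0 and 110 TPM in WT, 7.53 to 9.58 TPM in the Phc1 lines and 0.856 to 1.20 TPM in Pcgf2 KO.

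Within the second table, 4 of the 8 tested members were lower in Phc1 KO than in Phc1-SAM KO ESC and none higher, where 12.8% of all genes were lower and 30.9% higher. Hoxd13 had a log2 difference of -0.78 (SE 0.13, adjusted p = 0.0028) and Hoxd11, at 2.39 and 2.57 TPM against 6.04 and 4.54 TPM, one of -0.84 (SE 0.16, adjusted p = 0.0052). These 2 calls held under all alternatives in which the genes were tested. Hoxd9 (-0.55, SE 0.13, adjusted p = 0.015) was lost without the second library of either line (adjusted p = 0.065 and 0.076) and with only the compared groups in the fit (0.053). Hoxd8, at 0.443 and 1.08 TPM against 1.83 and 2.40 TPM (-0.84, SE 0.25, adjusted p = 0.033), was lost without the first Phc1 KO library (0.15) or either Phc1-SAM KO library (0.063 and 0.14). Without single libraries 2 to 3 members were called.

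The other members did not pass the test between the lines. Hoxd10 had 1.28 and 2.00 TPM in Phc1 KO ESC against 1.98 and 2.39 TPM in Phc1-SAM KO ESC (-0.28, SE 0.18, adjusted p = 0.27), and passed under quantile normalization (0.023). Hoxd1 had -0.24 (SE 0.17, adjusted p = 0.28), while Hoxd3 and Hoxd4 had differences of -0.03 (SE 0.24) and 0.03 (SE 0.18) whose signs turned with single libraries and, for Hoxd4, with both other scalings (-0.14 and -0.40). A p above the threshold does not show that the lines act alike here. A list of 10 fibroblast genes moved with the line, at 1265 to 1289 TPM in Phc1 KO ESC against 409 to 411 TPM in Phc1-SAM KO ESC, with 9 of 9 tested genes higher in Phc1 KO (Lum was at 0 in both Phc1 KO libraries). The naive genes summed to 1928 to 1945 TPM in Phc1 KO ESC against 2519 to 2559 TPM, with 10 of 12 lower and none higher, and the limb and lateral mesoderm genes to 67.9 to 82.8 TPM against 18.2 to 19.2 TPM, with 5 of 12 higher and 1 lower. The part of these lists in the Hoxd values was not tested.

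In NPC of the Phc1 lines Hoxd3 stood at 6.04 and 4.70 TPM (Phc1 KO) and 4.29 and 5.84 TPM (Phc1-SAM KO), and Hoxd4 at 8.93 and 7.53 TPM and 9.58 and 7.63 TPM. Set beside WT NPC in the first table, the mean TPM of Hoxd3 in Phc1 KO was 13.1-fold lower and that of Hoxd4 11.0-fold lower, across tables normalized separately. Hoxd9 had 6.09 and 5.50 TPM in Phc1 KO and 7.50 and 6.98 TPM in Phc1-SAM KO, above the 1.72 and 1.82 TPM of WT NPC. Hoxd13 had 1.19 and 1.51 TPM in Phc1 KO and 3.44 and 3.99 TPM in Phc1-SAM KO, both above the 0.0283 and 0.111 TPM of WT NPC. Their summed levels of neural progenitor genes, 181 to 189 TPM and 139 to 145 TPM, were near those of Pcgf2 KO NPC (144 to 173 TPM), and retinoic acid response genes summed to 1690 to 1742 TPM and 1766 to 1814 TPM.

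Only Hoxd13 passed the test between the 2 lines in NPC (log2 difference of Phc1 KO from Phc1-SAM KO -1.0, SE 0.13, adjusted p = 0.013), which is 1 of 8 against 1.52% of all genes lower and 2.52% higher. It was lost without any one of the 4 libraries (adjusted p = 0.054 to 0.097) and with only the compared groups in the fit (0.055). Hoxd1, at 1.91 and 2.00 TPM against 3.70 and 4.08 TPM, gave -0.73 (SE 0.17, adjusted p = 0.065). Hoxd8, Hoxd9, Hoxd10 and Hoxd11 also gave negative values, at -0.47, -0.28, -0.49 and -0.50, but did not pass the test.

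From ESC to NPC both Phc1 lines moved the 2 sides of the cluster in opposite directions. In each line the 5 members from Hoxd1 to Hoxd9 rose and Hoxd10, Hoxd11 and Hoxd13 fell. Of all genes 35% rose and 27.8% fell in Phc1 KO, and 43.8% rose and 23.8% fell in Phc1-SAM KO. The counts that fell are near those backgrounds, and the count that rose in Phc1-SAM KO is not far above its own. In Phc1 KO, Hoxd3 rose by a log2 fold change of 2.37 (SE 0.24, adjusted p = 0.00016) and Hoxd13 fell by 1.25 (SE 0.13, adjusted p = 0.00016). In Phc1-SAM KO, Hoxd3 rose by 2.27 (SE 0.24, adjusted p = 0.00015) and Hoxd13 fell by 1.03 (SE 0.13, adjusted p = 0.00035). The Phc1-SAM KO calls of Hoxd8 (1.01) and Hoxd10 (-0.78) were the ones lost without single libraries. Hoxd8 was lost without the first library of ESC (adjusted p = 0.056) or NPC (0.055), and Hoxd10 without the second of ESC (0.051). Under quantile normalization Hoxd8 (0.10) and Hoxd9 (0.13) were lost in that line. In Pcgf2 KO, described above, the Hoxd4, Hoxd8 and Hoxd9 levels had fallen from ESC to NPC.

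**Figure D5:**
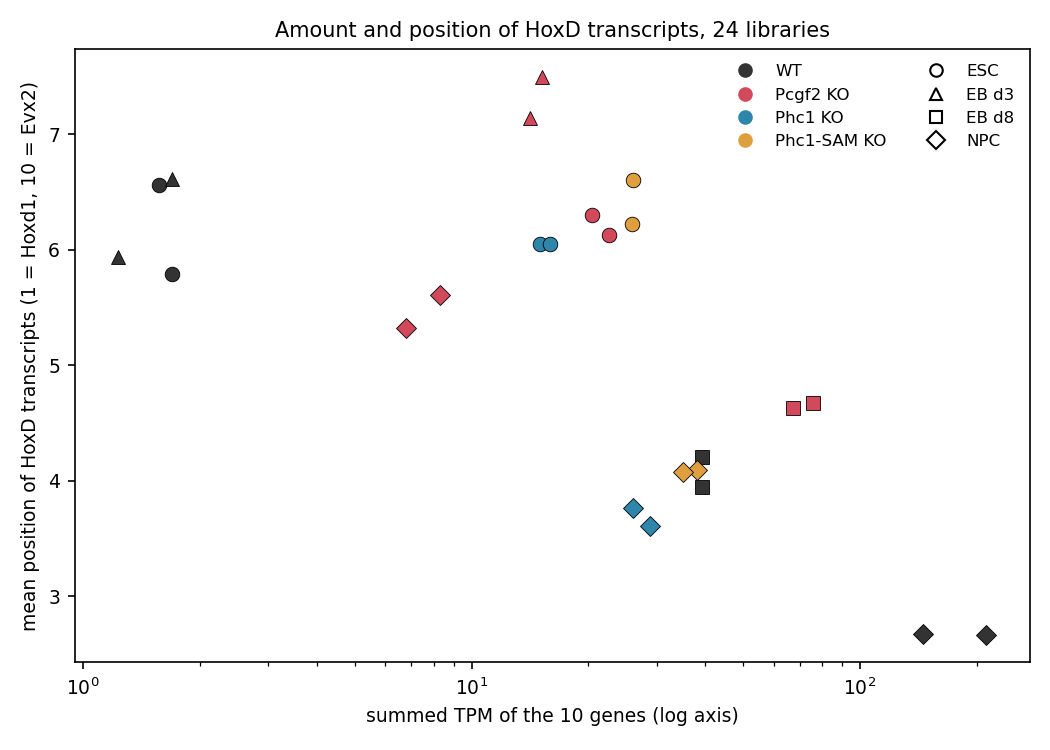
Amount against position of Hoxd transcripts in all 24 libraries. The x axis (log scale) is the summed TPM of the 10 genes, and the y axis their TPM-weighted mean position, from 1 at Hoxd1 to 10 at Evx2. Colour marks the genotype and shape the stage. WT NPC lie at the lower right (146 and 212 TPM, position 2.67), Pcgf2 KO EB day 3 at the top (14.1 and 15.2 TPM, positions 7.15 and 7.50).

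Amount and position together summarise the cluster. The position is the TPM-weighted mean of the cluster order, where 1 is Hoxd1 and 10 is Evx2. With 2 libraries on a side an exact permutation test cannot give a two-sided p below 0.33, so these sums are given without a test. WT ESC summed to 1.69 and 1.57 TPM with mean positions of 5.79 and 6.56, and Pcgf2 KO ESC to 20.4 and 22.5 TPM with positions of 6.30 and 6.13. The amount differed between these groups and the position overlapped. At EB day 3 Pcgf2 KO summed to 14.1 and 15.2 TPM, and 81.7% and 82.7% of it came from Hoxd10 to Evx2.

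At EB day 8 the share from Hoxd10 to Evx2 was 18.3% and 23.3% in WT and 33.3% and 30.4% in Pcgf2 KO, with sums of 39.2 and 39.2 TPM against 75.8 and 67.4 TPM. In WT NPC that share was 0.269% and 0.222% of 146 and 212 TPM. Pcgf2 KO NPC gave 46.6% and 41.5% of only 8.32 and 6.77 TPM. In both share and summed level the Phc1 NPC lay between WT and Pcgf2 KO, with 8.20% and 10.5% of 28.7 and 26.0 TPM in Phc1 KO NPC and 16.5% and 18.3% of 38.0 and 35.0 TPM in Phc1-SAM KO NPC. As ESC they gave 15.0 and 15.9 TPM (Phc1 KO) and 26.1 and 25.9 TPM (Phc1-SAM KO).

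Hoxd12 and Evx2 stayed under 0.5 TPM in all 24 libraries. Hoxd12, a limb and genital gene, was listed at 0 in all libraries of WT ESC, EB day 3 and NPC, and had 0.244 and 0.236 TPM in Pcgf2 KO ESC, 0.408 and 0.0897 TPM in Pcgf2 KO EB day 3 and 0.269 and 0.166 TPM in Phc1-SAM KO ESC. At EB day 8 it had 0.0495 and 0.133 TPM in WT against 0.0549 and 0.0668 TPM in Pcgf2 KO, so the groups overlapped, and in Pcgf2 KO NPC 0.0574 and 0 TPM. Hoxd11 and Hoxd13, its neighbours, were above 1.7 TPM in each of the 6 knock-out libraries of Pcgf2 KO ESC, Pcgf2 KO EB day 3 and Phc1-SAM KO ESC. Evx2, which marks spinal interneurons and the digits, behaved otherwise. It was at 0 in WT ESC and EB day 3 and had 0.176 and 0.260 TPM in WT NPC against 0.0338 and 0 TPM in Pcgf2 KO NPC. At EB day 8 it had 0.146 and 0.104 TPM in WT and 0.226 and 0.209 TPM in Pcgf2 KO. At these levels no fold change is given.

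Across the 16 libraries of the first table, some neighbouring members had alike patterns of log2(TPM + 1) and others did not. Pearson's r was 0.942 between Hoxd10 and Hoxd11, 0.924 between Hoxd11 and Hoxd13, 0.894 between Hoxd9 and Hoxd10 and 0.896 between Hoxd4 and Hoxd8. It was 0.935 between Hoxd3 and Hoxd4, whose annotated spans overlap. The neighbours Hoxd1 and Hoxd3 gave only 0.461, while Hoxd1 gave 0.911 with Hoxd8 and 0.878 with Hoxd9, which lie farther away. Hoxd12, which is near 0 in most libraries, gave 0.574 with Hoxd11 and 0.655 with Hoxd13. Hoxd3 and Hoxd13 gave -0.445. Evx2, at the far end beside Hoxd13, had r of 0.944 with Hoxd8 and -0.016 with Hoxd13. It was at or under 0.260 TPM in all these libraries, so its r rests on values near 0. These libraries share 8 groups and 2 genotypes, so the correlations describe the pattern of those groups only.

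Among 14670 other genes, those most like Hoxd4 over the same 16 libraries were Hoxc6 (r = 0.98), Orai2, Hoxb7, Id3 and Pygo1 (0.97 each). Those most like Hoxd9 were Hoxa10 (0.99), Car8 (0.96), Inca1, Lpin1 and Oxld1 (0.94 each). For Hoxd13 they were Rpl26 (0.96), Erich1 (0.95), Pnma5, Nxf3 and Tbcd (0.93 each). No Hox gene of another cluster was among those 5.

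Hox genes at the same place in the other 3 clusters are set beside the HoxD values. In NPC the group 4 genes Hoxa4, Hoxb4 and Hoxc4 all fell in Pcgf2 KO as Hoxd4 did, with log2 fold changes of -4.04, -3.16 and -4.41. The group 3 genes Hoxa3 and Hoxb3 gave -3.07 and -4.31. In ESC the group 13 genes Hoxa13, Hoxb13 and Hoxc13 rose, by 0.49, 0.93 and 1.70, and in NPC they rose by 0.51, 0.41 and 2.21. By cluster, 8 of 12 genes of HoxA (with Evx1), 3 of 10 of HoxB and 8 of 9 of HoxC rose in Pcgf2 KO ESC, and none fell, where 24.9% of all tested genes rose and 11% fell. The HoxB count is near that background. In Pcgf2 KO NPC 8 of HoxA, 9 of HoxB and 4 of HoxC fell, and 3, 1 and 3 rose, where 34.7% of all tested genes fell and 31.5% rose. The HoxC counts are near that background. Whether the HoxD counts differ from these was not tested.

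The nearest flanking genes measured here, Mtx2 and Lnpk, were at 9.69 TPM or more in every library. Mtx2, a mitochondrial import gene whose start lies 157.6 kb from that of Hoxd13 on the Hoxd1 side, stood at 36.6 to 39.4 TPM in WT and Pcgf2 KO ESC (log2 fold change -0.01, SE 0.11, adjusted p = 0.95). In NPC it fell from 72.6 and 82.2 TPM to 44.9 and 40.2 TPM (-0.85, adjusted p = 1.2e-05), and at EB day 3 by 0.47. Of the 7 flanking genes tested, Mtx2 and Lnpk included, 5 fell at EB day 3 in Pcgf2 KO and none rose. Of all tested genes 31.9% fell and 16.7% rose there. In NPC 4 flanking genes fell and 2 rose, where 34.7% of all tested genes fell and 31.5% rose. The count that rose in NPC is near that background. Lnpk, an endoplasmic reticulum gene 89.3 kb from Hoxd13 on the Evx2 side, had 12.1 and 10.4 TPM in WT ESC and 13.2 and 16.4 TPM in Pcgf2 KO ESC and was not called there or in NPC. In ESC of the Phc1 lines it was higher in Phc1 KO than in Phc1-SAM KO (21.6 and 21.8 TPM against 10.8 and 10.1 TPM; 0.99, adjusted p = 0.00025), the opposite direction to Hoxd8, Hoxd9, Hoxd11 and Hoxd13.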

How the data were processed

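Total RNA (TRIzol, TruSeq libraries, per the labels' protocols) of 24 libraries was analysed. The authors deposited 2 tables of TPM per gene (each gene's share of a library's transcripts, corrected for length). The submitters' processing notes name kallisto, DESeq2, STAR, SAMtools, BWA, deepTools, MACS2 and build mm10 for the study, with no roles. Versions, annotation release, strandedness and how shared reads were divided were not given in the sources used here. TPM hold no counts, so neither depth nor a counting interval is known. Of the second table, 4 WT columns were left unused, because their totals lie well below those of the other columns and their scale is unclear. The Phc1 lines are therefore set beside WT of the first table, without a test.

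From these values log2(TPM + 1) was taken, and genes reaching 1 TPM in 2 or more libraries were tested, two-sided, with limma 3.58.1 in R 4.3.3 (empirical Bayes with trend, 1 mean per group, 1 estimate of spread per gene and table) and Benjamini-Hochberg adjustment within each of 20 comparisons at 0.05. The fit was tested on simulated data. Where a library was left out, the lone library of its group was assumed to vary like the others. Tests ran within a table only. The naming rule covers all 10 members; where values of some are printed in a comparison, the others are given by a count or a range, or were not tested there. Pcgf2, Phc1 and Eif2s3y serve as checks, beside flanking genes, paralogs, list counts and the 5 genes most like Hoxd4, Hoxd9 and Hoxd13. The rule for the members uses names only, but the set and the lists were proposed with earlier results of these data known. Alternatives were a pseudocount of 0.1, a limit of 5 TPM, no limit, median-of-ratios scaling, quantile normalization, a replicate block, fits of only the groups compared, fits without the EB day 8 libraries and leaving out each library. Sequences and positions are from RefSeq (GRCm38.p6).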

Additional observations from a re-analysis of the deposited data

Results flagged for a closer look

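In each case below the log2 fold change of Pcgf2 KO against WT differed between 2 stages, by limma's test of the difference itself (adjusted p under 0.05). Every difference was negative. The values are on the log2(TPM + 1) scale, and no explanation was weighed.

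For EB day 3 against ESC the differences were -1.18 for Hoxd4, -0.695 for Hoxd8 and -1.51 for Hoxd9. For EB day 8 against ESC they were -1.07 for Hoxd4, -0.743 for Hoxd8, -1.41 for Hoxd9, -0.97 for Hoxd10 and -0.666 for Hoxd13.

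For NPC against ESC they were -2.2 for Hoxd1, -5.42 for Hoxd3, -7.18 for Hoxd4, -4.26 for Hoxd8, -2.3 for Hoxd9, -1.1 for Hoxd10, -0.949 for Hoxd11 and -0.752 for Hoxd13. For NPC against EB day 8 they were -2.25 for Hoxd1, -5.6 for Hoxd3, -6.11 for Hoxd4, -3.51 for Hoxd8, -0.892 for Hoxd9 and -0.79 for Hoxd11. With a pseudocount of 0.1 the sign turned for Hoxd13 (NPC against ESC) and for Hoxd11 (NPC against EB day 8). Both genes were at or under 0.111 TPM in WT NPC. Where EB day 8 is compared, its WT libraries are those set apart by Eif2s3y.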

How the results depend on the processing

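The counts of members called in Pcgf2 KO ESC (7 of 8), in WT from EB day 3 to EB day 8 (8 of 8) and in WT NPC against ESC (6 of 8) were the same under every alternative that tested 8 members. With no level limit, which tested 10, they were 8, 9 and 7. In a fit of only the groups compared they were 6 of 6, 8 of 8 and 5 of 5. There the members passed the level filter only through the group where they were higher, so those counts are no check of the calls. The counts of other comparisons moved. Against WT at EB day 3 the 7 calls became 3 in a fit of only the groups compared and 4 to 5 without single libraries. The 5 differences of the knock-out effect between EB day 8 and ESC became 3 without a level limit, 3 under quantile normalization and 3 to 4 without single libraries. WT EB day 3 against ESC had 2 members instead of 0 with a pseudocount of 0.1. Phc1 KO against Phc1-SAM KO in ESC had 2 instead of 4 with a limit of 5 TPM and 2 to 3 without single libraries, and in NPC 0 instead of 1 in a fit of only the groups compared and without each single library. NPC against ESC had 4 instead of 8 in Phc1 KO and 4 instead of 8 in Phc1-SAM KO with a limit of 5 TPM, under which fewer members are tested.

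Median-of-ratios scaling moved the summed level to 2.05 TPM in WT ESC, 23.6 in Pcgf2 KO ESC, 16.8 in Pcgf2 KO EB day 3, 6.23 in Pcgf2 KO NPC, 37.5 in WT EB day 8, 64.9 in Pcgf2 KO EB day 8, 29.5 in Phc1-SAM KO ESC and 25.4 in Phc1 KO NPC. Only groups whose mean moved by the SD of their 2 libraries or more are listed. WT NPC, with a mean of 178.6 TPM and an SD of 46.6 TPM, is not listed. Its size factors of 1.272 and 1.224 still lower its level.

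Signs turned for 7 single values. With a pseudocount of 0.1 the stage differences of the knock-out effect were 0.50 for Hoxd13 (NPC against ESC) and 0.35 for Hoxd11 (NPC against EB day 8). For Hoxd4 between the Phc1 lines in ESC the value was -0.14 under median-of-ratios scaling and -0.40 under quantile normalization. Without single libraries the range was -0.11 to 0.68 for Hoxd3 (Pcgf2 KO against WT, EB day 8), -0.32 to 0.26 for Hoxd3 and -0.15 to 0.20 for Hoxd4 (Phc1 lines, ESC), and -0.11 to 0.26 for Hoxd3 and -0.20 to 0.093 for Hoxd4 (Phc1 lines, NPC). The cause was not tested.

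No large shift was shared by same-numbered libraries. Deviations from group means correlated between them with r of -0.184 to 0.131 over 28 pairs of groups in the first table (median -0.0235, 1 over 0.1). In the second table r was -0.0319 to 0.0215 over 6 pairs. Such values cannot show whether same-numbered libraries were made together. With the replicate number as a block Pcgf2 KO against WT gave 7 calls in ESC, 6 at EB day 3, 6 at EB day 8 and 7 in NPC, and 4 single calls were lost. Leaving out the EB day 8 libraries changed 1 call outside that stage, that of Hoxd4 at EB day 3. Counting a member once for each library left out, 62 values lost their call, 2 gained one, 9 turned sign and 551 stayed on their side.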

Other observations

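Of 13 genes of the PRC2 list 10 were higher and 2 lower in Pcgf2 KO than in WT NPC, where 31.5% of all tested genes were higher and 34.7% lower, and the median log2 fold change was 1.20 for the list and -0.03 over all tested genes. Of 14 canonical PRC1 genes 3 were higher and 6 lower there, with a median of -0.19. Between the Phc1 lines in ESC, 7 of 10 HoxB genes were higher in Phc1 KO and none lower, where 30.9% of all tested genes were higher and 12.8% lower, whereas 4 HoxD members were lower and none higher. HoxA had 4 higher and 4 lower of 12, and HoxC 1 higher and 2 lower of 9. The HoxA share higher and the HoxC share lower are near that background. These differences between clusters were not tested.

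The retinoic acid degrading enzymes Cyp26a1 and Cyp26b1 went opposite ways in Pcgf2 KO NPC, with log2 fold changes of 1.36 (limma, adjusted p = 0.00022) and -2.47 (adjusted p = 3.1e-09). The caudal gene Cdx1, whose product acts on Hox genes, was higher there by 4.04 (adjusted p = 4.6e-10), while Cdx2 gave -0.23 (adjusted p = 0.32). These 4 genes were chosen after their values were seen.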
